A study of Homo sapiens with 30 samples.

Results

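The regions described here are H3K27ac peaks that 1 antibody, Abcam ab177178, gave and 3 other H3K27ac antibodies did not. They came from CUT&Tag on K562, an established human chronic myeloid leukaemia cell line. From the ab177178 list called by SEACR for the untreated library (antibody at 1/100, SDS extraction, 15 PCR cycles), a peak on chromosomes 1 to 22 or X was taken as private when it shared no base with any peak of 4 other untreated SDS lists at 15 cycles. Those lists were for Abcam ab4729 and Active Motif 39133, both at 1/100, and Diagenode C15410196 at 1/100 and at 1/50. Of 16623 ab177178 peaks, 7184 were private, or 43.2% (95% Wilson interval 42.5 to 44.0), and the other 9439 are called shared. The 30 SEACR lists of the series hold 587932 peaks in all.

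Every library used K562 cells alone, with no genotype difference, and 500000 cells per experiment. Besides the 5 lists that the rule used, the comparisons drew on 16 H3K27ac lists called after downsampling, with the same 4 antibodies (Diagenode only at 1/50) under SDS or column extraction at 11 or 13 cycles. They also drew on 4 lists from libraries with trichostatin A (TSA, a histone deacetylase inhibitor; SDS, 15 cycles), for ab177178, ab4729 and Diagenode at 1/100 and 1/50. The H3K27me3 antibody CST9733 at 1/100 gave 5 lists, 1 with SDS at 15 cycles and 1 downsampled list for each extraction at 11 and 13 cycles. Each condition is a single library, which leaves every share without a replicate error, and intervals cover counting error only. Among the H3K27me3 lists, that of the column library at 11 cycles stood apart, since it overlapped 15.9% of shared ab177178 peaks against 3.82% to 7.77% for the other 4. Summaries over the H3K27me3 lists are therefore given with and without it, the latter added after the data were seen.

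Acetylation and trimethylation of lysine 27 of histone H3 compete for the same residue. The acetylated form marks active promoters and enhancers, and the trimethylated form, written by Polycomb repressive complex 2, marks silenced domains. In CUT&Tag a transposase tethered to the antibody cuts the DNA beside the mark. SEACR joins stretches of continuous signal into blocks, ranks them by total signal and reports each block's total and maximum, while MACS2 scans for local pile-ups of reads. A SEACR peak can therefore be a wide, shallow block that MACS2 does not call.

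The private peaks were weak for their list. Their total signal, given as a description since it comes from the list that the rule used, had a median of 3481 against 4819 for shared peaks, and both classes began at 2714, the lowest total in the list. The private median stood at percentile 35.4 of the list and the shared median at 63.0. Divided into quintiles, 5 equal groups by total signal, the list was 63.9% private in the weakest quintile (62.2 to 65.5) and 16.6% private in the strongest (15.4 to 17.9). Maximum signal, a whole number in these files, had a median of 6 in private peaks and 8 in shared ones. It was 5 or less in 34.3% of private peaks and 10.1% of shared peaks.

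**Figure D1:**
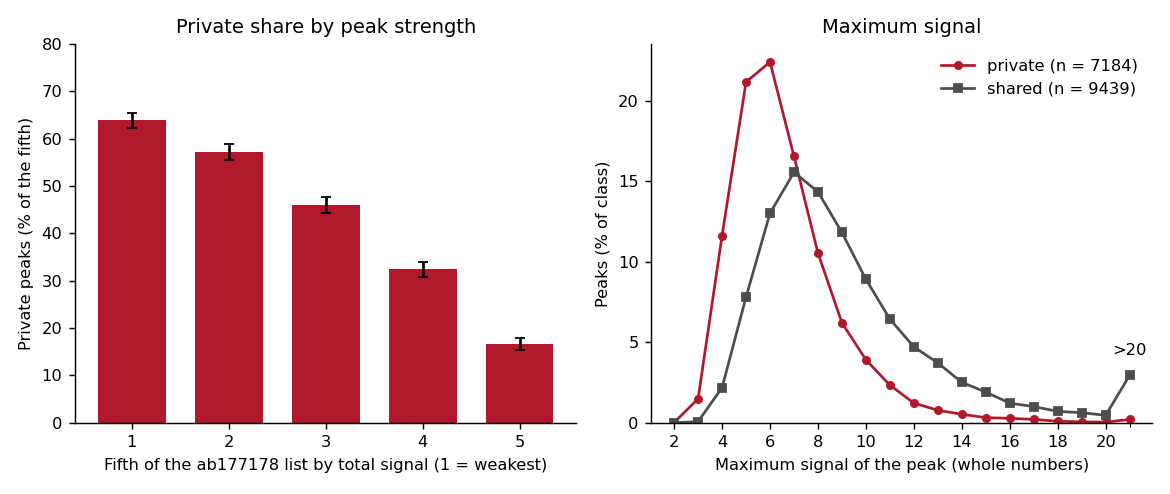
Left, private peaks as a percentage of each quintile of the ab177178 list by total signal, with 95% Wilson intervals as error bars. Right, the percentage of private and of shared peaks at each maximum signal. The private share falls from 63.9% in the weakest quintile to 16.6% in the strongest, and private peaks lie at lower maxima.

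In width the classes were close. Private peaks had a median of 1349 bp, with a range from 417 to 22998 bp and quartiles of 1107 and 1658 bp. Shared peaks had a median of 1441 bp and quartiles of 1106 and 2031 bp. The classes thus share their lower quartile and part in the upper tail. Only 43 private peaks, or 0.599%, exceeded 5000 bp, against 2.28% of shared peaks. Of those 43, 35 lay in the 6 windows on chromosomes 9 and 22 described below, which held 4.32% of the list. All 5 H3K27me3 lists overlapped 35 of them, against 6.97% of the list. Neither count was made for shared peaks over 5000 bp, so no contrast between classes is drawn.

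Private peaks were mostly some distance from the other lists. The median distance to the nearest peak of the 4 other lists was 18840 bp, with quartiles of 5422.5 and 54810 bp, and 508 private peaks (7.07%) lay within 1 kb of one. At the edge of the rule, the private peaks at chr16:371530-373255 and chr20:33874392-33875520 (hg19, as all coordinates here) were each 1 bp from another list's peak, with total signals of 3411 and 2855. Just across it, the shared peak at chr11:62309925-62311235 overlapped another list by 1 bp and that at chr9:134139274-134140383 by 2 bp, with totals of 3675 and 4199. Such contacts were rare on the shared side, where 47 of 9439 peaks had under 10% of their width covered and 74.0% were covered entirely. The ab4729 list alone accounted for 1135 shared peaks, and the Active Motif list alone for 26. The lists that set the rule differed in size and content. They held 13394 peaks over 43.3 Mb for ab4729, 11844 over 31.9 Mb for Diagenode at 1/50, 7834 over 11.99 Mb for Diagenode at 1/100 and 3024 over 3.15 Mb for Active Motif. The share of peak signal on the mitochondrial sequence was 2.09%, 8.16%, 35.6% and 30.9% in the same order, and 1.47% in the ab177178 list. The part of these differences in which peaks counted as private was not tested.

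Another caller supported the private peaks less often than the shared ones. In the same ab177178 library, MACS2 called a peak inside 2106 private peaks, or 29.3% (28.3 to 30.4), against 62.3% of shared peaks and 48.0% of all peaks in the list. Among private peaks the share rose with strength, from 11.5% in the weakest quintile to 78.4% in the strongest. Within that strongest quintile it was 92.7% for shared peaks. Where MACS2 did call a private peak, its −log10 q-value had a median of 7.75 and its fold enrichment a median of 7.20, against 10.7 and 8.80 in shared peaks, all as the authors' caller gave them. MACS2 lists of the 4 other libraries also reached part of the private class. They held a peak in 981 private peaks (13.7%, against 59.3% of the whole list), 836 of them from ab4729 and 8 from Active Motif.

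Among libraries that the rule did not use, those of ab177178 itself held more private peaks than those of the other antibodies. In the 4 downsampled ab177178 lists they were found at 11.2% (SDS, 11 cycles), 8.53% (column, 11 cycles), 4.80% (SDS, 13 cycles) and 3.94% (column, 13 cycles). In the 12 downsampled lists of the other antibodies the share ran from 0.404% (Diagenode, SDS, 11 cycles) to 2.28% (Active Motif, column, 11 cycles). The ab177178 list was the highest in 4 of 4 protocols, and no list of another antibody reached the lowest ab177178 list. The means were 7.12% ± 3.38 (SD, n = 4 lists) and 1.08% ± 0.680 (SD, n = 12 lists), a difference of 6.05 percentage points (exact two-sided permutation test with antibody labels permuted within each protocol, p = 0.00391, the smallest possible; adjusted p = 0.0234 over 6 tests). These lists differ in covered length, and per covered Mb the difference was 2.05 on the log2 scale (exact permutation p = 0.00781).

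For shared peaks the same lists were closer together, at 49.6% ± 4.84 (SD, n = 4) for ab177178 and 36.7% ± 8.48 (SD, n = 12) for the others. The ratio of means was 1.35 for shared peaks and 6.61 for private peaks. The rule itself chose peaks that the other 3 antibodies lacked at 15 cycles, so that contrast too is favoured in advance by the choice of members. How much of it goes with that choice was not tested. No source used here says whether libraries at 11, 13 and 15 cycles came from separate tagmentation reactions.

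**Figure D2:**
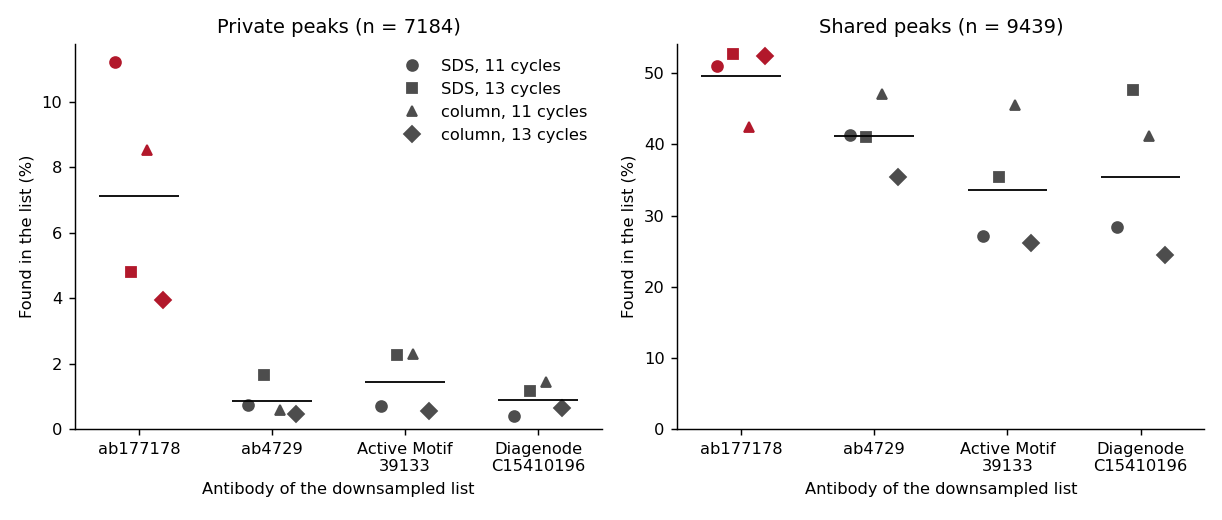
Each point is 1 downsampled H3K27ac list, placed by antibody and shaped by protocol; the vertical axis is the percentage of private (left) or shared (right) ab177178 peaks found in it, and bars are means of 4 lists. The 4 ab177178 lists hold 3.94% to 11.2% of private peaks, above all 12 lists of other antibodies.

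Most private peaks did not return even with ab177178. Of the 7184, 5762 (80.2%) were in none of its 4 downsampled lists, 968 were in 1, 315 in 2, 107 in 3 and 32 (0.445%) in all 4. At least 1 of the 4 lists held 1422 private peaks (19.8%), against 52.6% of all peaks in the list and 77.6% of shared peaks, and all 4 held 13.0% of the list. At least 1 of the 12 lists of other antibodies held 675 private peaks (9.396%), against 50.0% of the list. Recurrence was higher in stronger peaks: 10.8% of private peaks in the weakest quintile and 55.9% in the strongest were in at least 1 of the 4 lists. Shared peaks of the weakest quintile were found at 63.6%. Private peaks were found again at a lower share than shared peaks in each of the 5 groups. No test was made of this, because both classes were cut from 1 list.

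Recurrent private peaks were wider and more often called by MACS2 than the rest, and so were recurrent shared peaks. Median width was 1334 bp for private peaks in no downsampled ab177178 list and 2349.5 bp for the 32 in all 4, against 1316 and 1790 bp for shared peaks. MACS2 called 23.9% and 81.3% of these private peaks, and 43.7% and 83.9% of shared peaks. An overlap with the 15-cycle H3K27me3 list was seen in 24.7% and 53.1% of them, and in 5.72% and 10.2% of shared peaks. In the 6 windows on chromosomes 9 and 22 lay 3.14% and 40.6%, a contrast set in part by construction, since 1 of the 4 lists defined those windows. Counting only the other 3 lists, the windows held 4.33% of private peaks in none and 33.3% of the 42 in all 3, against 2.09% and 3.13% of shared peaks. Of the 32, 71.9% were also in at least 1 downsampled list of another antibody, so only 9 were in all 4 ab177178 lists and none of the 12 others. MACS2 called 8 of those 9.

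**Figure D3:**
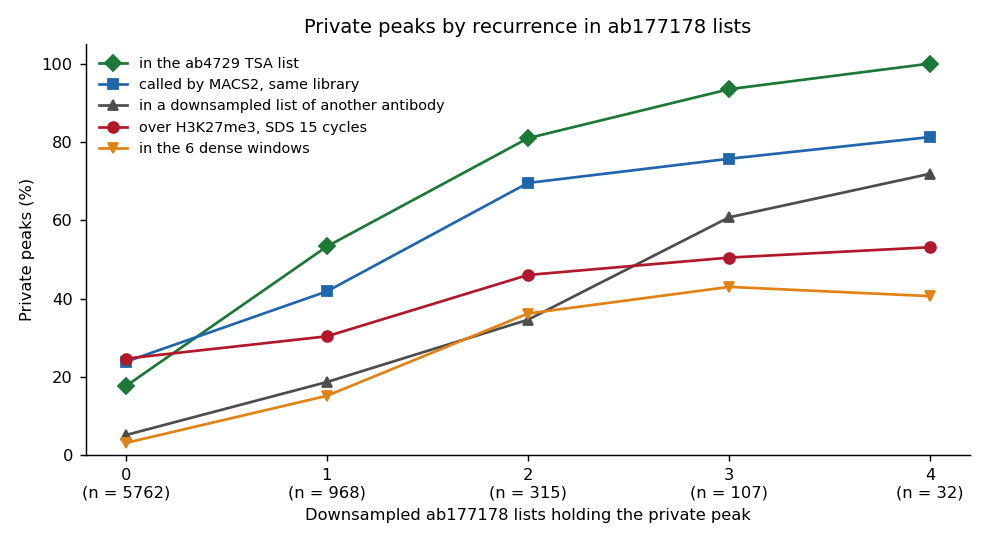
Private peaks grouped by how many of the 4 downsampled ab177178 lists hold them (horizontal axis, with n), and the percentage of each group with 5 other properties (vertical axis). All 5 percentages are higher among the 32 peaks in all 4 lists than among the 5762 in none; the dense-window share is so in part because 1 of the 4 lists defined the windows.

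Of these 8, the strongest 6 show how uneven the class is. The peak at chr22:23087146-23094277, 7132 bp wide with a maximum of 21, was at percentile 99.6 of its list by total signal. Its best overlapping peak stood at percentile 77.6 and 91.1 of the SDS lists at 11 and 13 cycles, and at 79.4 and 35.4 of the column lists. The peak at chr22:23076107-23079093 was narrower, 2987 bp, and taller, with a maximum of 34 and a MACS2 fold enrichment of 28.0. Also on chromosome 22 were chr22:22518754-22521611 and chr22:23241531-23243346, with maxima of 18 and 22. All 4 overlapped each of the 5 H3K27me3 lists, and all 4 lay in the dense windows described below. In those windows 58.3% of private peaks were over all 5 H3K27me3 lists, against 12.9% of all private peaks. A downsampled ab177178 list used to choose these peaks also defined the windows. Outside chromosome 22 the set held chr21:15357632-15360067, over 4 of 5 H3K27me3 lists, and chr4:49216145-49217574, over none. All 6 were in the ab4729 TSA list, and none was in the ab177178 TSA list.

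A small group recurred without the repressive mark. In all 4 downsampled ab177178 lists and no H3K27me3 list there were 15 of the 7184 private peaks, a group chosen after its values were seen. The strongest was chr1:159879842-159882497, 2656 bp wide, with a maximum of 11 and ranks at percentiles 69.1, 67.6, 5.50 and 45.5 of the SDS lists at 11 and 13 cycles and the column lists at 11 and 13 cycles. It was followed by chr4:49216145-49217574, chr15:70738882-70741174 and chr7:106228570-106229867, with maxima of 12, 7 and 9. Their place in the lists was not stable, as the chromosome 7 peak ranged from percentile 7.75 to 50.2 over the 4 lists.

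At the other end, 2290 private peaks (31.9%) were in none of the 31 further lists, H3K27me3 and MACS2 included, against 14.7% of all peaks in the list. By total signal the first was chr1:41271453-41275422, at percentile 92.3, 3970 bp wide with a maximum of 7. Its mean signal was 2.79. The next 3, chr2:129230045-129233767, chr1:156853636-156857068 and chr1:36936301-36939968, were 3433 to 3723 bp wide with maxima of 5 to 7. These 4 peaks reached the upper part of the list by width at a low maximum. They are not typical of the 2290, of which 909 were in the weakest quintile of the list and 30 in the strongest.

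Private peaks overlapped H3K27me3 more often than shared peaks in each of the 5 H3K27me3 lists. The 15-cycle SDS list covered 26.9% of private peaks (25.9 to 27.9) by at least 1 bp, or 1932 of them, against 7.77% of shared peaks and 16% of the whole list. In the SDS lists the values were 18.1% of private and 5.06% of shared peaks at 11 cycles, and 21.3% and 4.66% at 13 cycles. In the column lists they were 21.0% and 15.9% at 11 cycles, and 19.3% and 3.82% at 13 cycles. The mean difference was 13.9 percentage points ± 5.39 (SD, n = 5 lists; exact two-sided sign-flip permutation test, p = 0.0625, the smallest possible, so that 0.05 could not be reached; adjusted p = 0.0625 over 6 tests). Without the column list at 11 cycles it was 16.1 points. The 5 lists share 1 H3K27me3 antibody and are set against the same peaks of 1 ab177178 library, so they are not independent replicates.

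**Figure D4:**
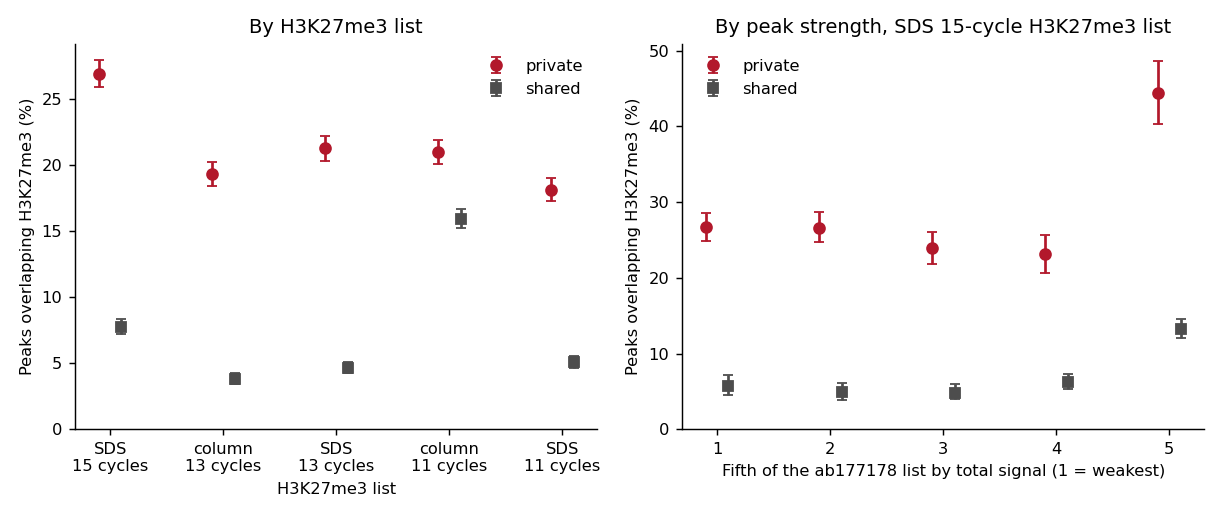
Percentage of private and shared ab177178 peaks overlapping H3K27me3, with 95% Wilson intervals, for each H3K27me3 list (left) and for the 15-cycle SDS list within each quintile of total signal (right). Private peaks lie above shared peaks at every point, and the column 11-cycle list, at 21.0% and 15.9%, shows the smallest gap.

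The overlap was mostly deep rather than at the edge. The 15-cycle H3K27me3 list covered 24.8% of private base pairs and 5.48% of shared base pairs, and 4.91% of the span analysed. It covered at least 50% of the width in 22.98% of private peaks and 4.92% of shared peaks. The H3K27me3 peaks under private members were among the stronger ones, at a median percentile of 91.8 in their own list and 2455.5 bp wide, against 65.5 and 953 bp under shared members. All 5 H3K27me3 lists covered 926 private peaks, or 12.9%, against 2.47% of shared peaks and 6.97% of the whole list. Without the column list at 11 cycles, all 4 others covered 981 private peaks (13.7%) and 2.52% of shared peaks. At least 1 of the 5 covered 2297 private peaks (31.97%), against 20.5% of shared peaks and 25.4% of the whole list, which left 4887 private peaks (68.0%) over none. Without that list, at least 1 of 4 covered 30.4% of private peaks and 10.0% of shared peaks. Between these extremes 534, 305, 250 and 282 private peaks were over 1, 2, 3 and 4 lists. Private peaks over all 5 lists recurred in at least 1 downsampled ab177178 list at 39.0%, against 17.2% of those over none. Of the peaks over all 5, 31.5% lay in the dense windows described below, against 2.48% of those over none.

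The difference was present at every strength. Its mean over the 5 lists was 14.7, 16.1, 14.6, 14.0 and 27.6 points from the weakest to the strongest quintile, and 16.03, 17.6, 15.95, 15.9 and 30.9 points without the column list at 11 cycles. Within the private class the relation to MACS2 support depended on the H3K27me3 criterion. Peaks that MACS2 called overlapped the 15-cycle H3K27me3 list at 26.2%, and those it did not call at 27.2%. All 5 lists covered 16.6% of the peaks that MACS2 called (15.0 to 18.2) and 11.4% of those it did not (10.5 to 12.3). The MACS2 list of the same H3K27me3 library overlapped 29.0% of private and 9.92% of shared peaks.

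The private peaks of the other 4 lists, found by the same rule, were fewer and did not show this gap to the same size. For each Diagenode list the rule also excluded peaks of the same antibody at the other dilution. The Diagenode members are thus private to a list and not to an antibody, unlike those of ab177178. They numbered 1724 for ab4729 (12.9% of its list), 605 for Diagenode at 1/50, 270 for Active Motif and 264 for Diagenode at 1/100. Private minus shared overlap with H3K27me3, averaged over the 5 lists, was -2.28 points for ab4729, -1.73 for Diagenode at 1/50, -3.67 for Active Motif and 2.76 for Diagenode at 1/100. The ab177178 difference exceeded each of them in 5 of 5 H3K27me3 lists, by 11.1 points (Diagenode at 1/100) to 17.5 points (Active Motif). Each of these 4 exact sign-flip permutation tests gave p = 0.0625 and an adjusted p of 0.0625, again the smallest possible. Here too the 5 H3K27me3 lists are not independent replicates. Without the column list at 11 cycles the values were -0.58 points for ab4729, 0.10 for Diagenode at 1/50, -0.74 for Active Motif and 5.21 for Diagenode at 1/100, so that of Diagenode at 1/50 changed sign. The ab177178 difference then exceeded them by 10.9 to 16.8 points, in 4 of 4 lists each (exact sign-flip permutation p = 0.125, the smallest possible with 4 lists). MACS2 called 93.4% of private and 98.8% of shared ab4729 peaks in their own library, and 70.7% and 57.9% of those of Active Motif. For Diagenode the private and shared values were 81.0% and 95.6% at 1/50, and 63.3% and 72.6% at 1/100. For ab177178 they were 29.3% and 62.3%, so the lists differed in their shared peaks as well. In downsampled lists, private ab4729 peaks were found at a mean of 6.03% with ab4729 itself and 5.69% with other antibodies.

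By chromosome, the private share of the ab177178 list ran from 22.04% on X (16.7 to 28.5) to 65.1% on chromosome 22 (61.9 to 68.2). Without the dense windows described below, chromosome 22 was at 53.2%, beside 53.7% on chromosome 21 and 48.2% on chromosome 1. The lowest autosome was chromosome 4 with 30.3%. Chromosome 1 held most private peaks, 1222. The chromosomes with a high private share were partly those where private peaks met H3K27me3 most often. That overlap was 62.8% on chromosome 22 and 43.8% on chromosome 21, but 27.7% on chromosome 1 and 4.88% on X, where it rests on 2 of 41 peaks. The value for chromosome 22 rests on 358 private peaks, of which its dense windows held 39, 69, 53, 88 and 68. Only 117 of its 570 private peaks lay outside those windows, and their overlap was not given as a separate share. Shared peaks also overlapped H3K27me3 most often on chromosomes 22 and 21, at 23.9% and 16.4%.

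**Figure D5:**
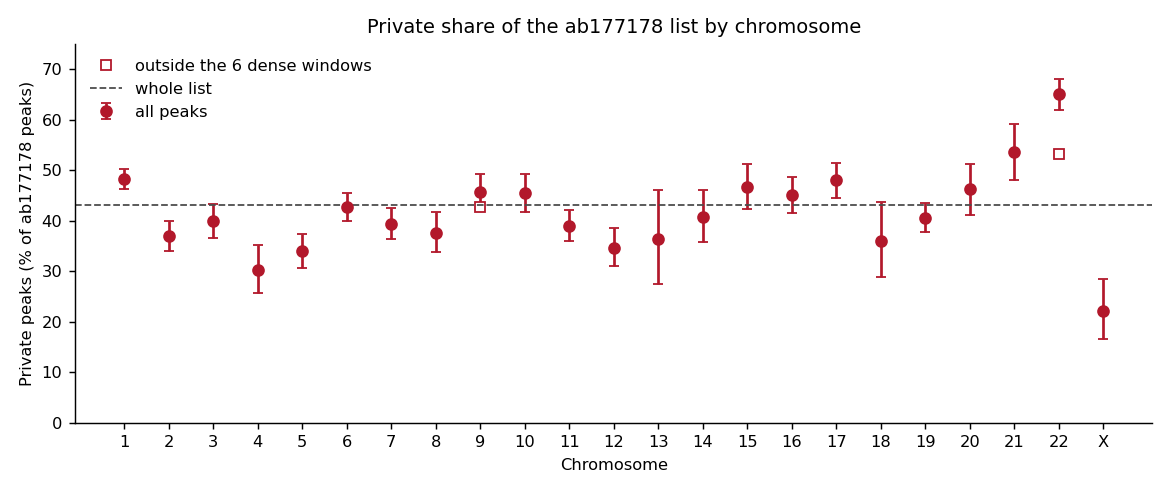
Private peaks as a percentage of ab177178 peaks on each chromosome, with 95% Wilson intervals; open squares leave out the 6 dense windows on chromosomes 9 and 22, and the dashed line is the whole list at 43.2%. Chromosome 22 is highest at 65.1%, or 53.2% without the dense windows, and X lowest at 22.04%.

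Private peaks were unevenly spread over the genome. They fell in 1332 windows of 1 Mb, and 204 of these held 50% of them. Shared peaks fell in 1829 windows, but the number holding 50% of them was not counted, so no contrast between classes is drawn. The 5 windows on chromosome 22 from 19000001 to 24000000, together with chromosome 9 from 133000001 to 134000000, held 501 private peaks, or 6.97% of the class, against 2.30% of shared peaks and 4.32% of the list. These windows are the 6 with at least 60 peaks in the ab177178 SDS list at 11 cycles, a definition made on these data. K562 carries the Philadelphia chromosome, in which BCR on chromosome 22 is fused to ABL1 on chromosome 9, in many copies. No copy-number correction entered the peak lists as used here, and the part of copy number in these counts was not tested.

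Inside the 6 windows private peaks overlapped the 15-cycle H3K27me3 list at 71.1% and shared peaks at 32.7%. MACS2 called 57.5% of the private and 82.5% of the shared peaks there. In at least 1 downsampled ab177178 list 63.9% of the private and 83.9% of the shared peaks recurred, shares that are high in part because 1 of those lists defined the windows. Outside the windows the difference between classes was still present, with 23.6% of 6683 private peaks over H3K27me3 and 7.18% of shared peaks. The mean difference over the 5 H3K27me3 lists was 10.9 points there, and 13.05 without the column list at 11 cycles. Recurrence in at least 1 downsampled ab177178 list was 16.5% for private and 77.4% for shared peaks outside. The downsampled antibody difference, for members chosen in the same way, was 4.60 points without the windows (exact permutation p = 0.00391). That choice favours this direction in advance here too, so the p-value cannot show a difference independent of the rule.

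The strongest private peaks all lay in these windows. The first by total signal, chr22:23424745-23444588, was 19844 bp wide with a maximum of 19. The next were chr9:133785426-133804960 and chr9:133962384-133985381, 19535 and 22998 bp wide with maxima of 23 and 18. The 15-cycle H3K27me3 list covered each of these 3 in full, with peaks of 78180, 56870 and 67581 bp above percentile 99.9 of that list. Their place in the downsampled ab177178 lists varied. The widest, chr9:133962384-133985381, corresponded to 12 and 4 peaks in the SDS lists at 11 and 13 cycles and to 8 and 3 in the column lists. In the same order, chr22:23424745-23444588 corresponded to 9, 6, 7 and 0 peaks, so it was absent from the column list at 13 cycles. For chr9:133785426-133804960 the numbers were 5, 2, 8 and 1, the last at percentile 3.25 of its list. All 8 of the strongest were over all 5 H3K27me3 lists and in the ab4729 TSA list.

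In the 4 windows with most private peaks outside the 6 dense ones, private peaks were less often over H3K27me3 than inside the dense windows. For comparison, 23.6% of all private peaks outside the dense windows were over the 15-cycle H3K27me3 list. Chromosome 6 from 43000001 to 44000000 held 56 private peaks of 85, with 14 over the 15-cycle H3K27me3 list. Chromosome 10 from 72000001 to 74000000 held 40 of 53 in its first Mb and 35 of 42 in its second, with 10 and 3 over H3K27me3. Chromosome 1 from 26000001 to 27000000 held 38 of 63, with 3 over it. In these 4 windows 8, 7, 2 and 3 private peaks recurred in a downsampled ab177178 list, against 16.5% of all private peaks outside the dense windows. Other windows were more often over H3K27me3, and they were not counted. Among them were chromosome 17 from 34000001 to 35000000, with 17 of 18 private peaks over it, and chromosome 1 from 204000001 to 205000000, with 19 of 26. The windows were named after their counts were seen. The strongest private peak outside the 6 dense windows, chr10:73505028-73511313, lay in the second of the chromosome 10 windows, 6286 bp wide with a maximum of 14, and was in none of the 4 downsampled ab177178 lists and over no H3K27me3 list.

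The 6 strongest private peaks outside the dense windows, chosen after their values were seen, were of different kinds. MACS2 called all 6. The peak at chr22:18837790-18843668, 5879 bp wide, was over all 5 H3K27me3 lists and in 2 of 4 downsampled ab177178 lists. The peak at chr2:162135053-162139178, 4126 bp wide with a maximum of 14, was over all 5 H3K27me3 lists and in all 4 downsampled ab177178 lists, at percentiles 70.6 and 50.3 of the SDS lists and 82.0 and 69.2 of the column lists at 11 and 13 cycles. The other 4 were over no H3K27me3 list and in no downsampled ab177178 list. Besides chr10:73505028-73511313 these were chr16:85609768-85616864, chr17:56261280-56265515 and chr16:57509335-57515473, with maxima of 9, 16 and 10. They stood at percentiles 97.1 to 99.0 of the 15-cycle list. The chromosome 16 peak at 85609768 lay 379 bp from a peak of another list, and that on chromosome 17 lay 99108 bp away.

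Spacing within each class moves with the number of peaks it holds, here 7184 private and 9439 shared. The median distance from a private peak to the next private one was 14042 bp, and 43.75% had one within 10 kb. Between shared peaks it was 10882 bp, and 48.8% had one within 10 kb. Outside the dense windows the medians were 17154 and 11667.5 bp.

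With TSA the private peaks were rarely seen with their own antibody and more often with ab4729. In both lists their share was below that of the whole ab177178 list. The ab177178 TSA list held 126 of them, or 1.75% (1.48 to 2.08), against 39.4% of shared peaks and 23.1% of the list. The ab4729 TSA list held 1920, or 26.7% (25.7 to 27.8), against 73.6% of shared peaks and 53.3% of the list. The Diagenode TSA lists held 0.251% at 1/100 and 0.654% at 1/50. At least 1 of the 4 TSA lists held 1977 private peaks (27.5%), against 58.6% of the list, so the ab4729 list accounted for nearly all of these. The lists differ in size, with 7056 peaks for ab177178 and 22808 for ab4729, and in the share of peak signal on the mitochondrial sequence, 33.2% and 2.88%. The part of list size and of mitochondrial signal in this contrast was not tested, and treatment cannot be told apart from depth, which is unknown for lists at 15 cycles.

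Private peaks in the ab4729 TSA list differed from the other private peaks in the same direction as shared peaks did. Among the 1920, 39.7% were over the 15-cycle H3K27me3 list, 48.0% were called by MACS2 in the ab177178 library and 47.0% recurred in at least 1 downsampled ab177178 list. Among the 5264 others these shares were 22.2%, 22.5% and 9.86%. For shared peaks in and not in that list, the H3K27me3 shares were 9.60% and 2.65%, the MACS2 shares 69.0% and 43.5%, and the recurrent shares 88.2% and 48.0%. All 32 private peaks found in all 4 downsampled ab177178 lists were in the ab4729 TSA list, as were 98.6% of the shared peaks found in all 4. In the 6 dense windows that list held 80.8% of private and 88.5% of shared peaks, and outside them 22.7% and 73.2%.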

How the data were processed

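CUT&Tag peak lists of 30 K562 libraries were used, with 1 library per condition. Peaks were called by the authors per library without duplicate reads, and the lists at 11 and 13 cycles after downsampling to 1 read depth, per the labels. The submitters' processing notes name the build hg19 and the tools MACS2, SEACR, bedtools 2.25.0, SAMtools 1.3.1, Bowtie2 2.2.9, Picard 2.6.0 and Trim Galore 0.6.6. No source used here gives the SEACR mode and threshold or the read depth. The authors' SEACR lists give total and maximum signal, whole numbers that were used only within a list. The authors' MACS2 lists give a score (not used here), a fold enrichment ratio and −log10 p- and q-values; their peak names read q 0.00001 with no lambda, per the file contents.

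Only chromosomes 1 to 22 and X were analysed, which left out 285 ab177178 peaks (1.69%). Peaks overlapped at 1 bp or more. Shares carry 95% Wilson intervals, which cover counting error only, since PCR reads are not independent molecules. Differences between lists were tested with exact permutation tests with Benjamini-Hochberg adjustment across 6 of them, 4 added after the data were seen. Alternatives changed the overlap, the excluding lists, the strength of members, the windows and the lists tested. Named regions were the 8 strongest private peaks, the 6 strongest called by MACS2 and found in all 4 downsampled ab177178 lists but none of the 12 others, the 4 strongest in no other list, the 4 widest, the 4 strongest over all 5 H3K27me3 lists, and 2 on each side of the rule; others are marked as chosen later. The strongest peaks outside the dense windows were also added later. The members, windows and tests were chosen with earlier results of these data known. The gene, promoter and miRNA tables in hand are on another assembly, so no gene or sequence is given.

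Overlap code, tested on simulated data from the 16623 ab177178 peaks, recovered all 4155 planted overlaps, as did bedtools 2.31.1. Computation used matplotlib 3.10.9, pandas 2.3.3, scipy 1.17.1, numpy 2.4.6 and Python 3.11.15.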

Additional observations from a re-analysis of the deposited data

Results flagged for a closer look

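Among the 4 TSA lists, the ab4729 list stood apart in the share of private peaks it held, 26.7% against 0.251% to 1.75% in the other 3. Among the 4 downsampled ab177178 lists, the column list at 11 cycles stood apart in the share of shared peaks it held, 42.5% against 51.0% to 52.7%. In both cases the gap to the nearest list exceeded Dixon's 95% critical value. Of 7 sets of lists examined, 2 gave such a value, and chance gives about 1 in 20. The lists in a set are single libraries of different conditions and not replicates.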

How the results depend on the processing

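No paired analysis was possible because each condition has 1 library and the labels carry no replicate numbers; tests were instead arranged by protocol or by H3K27me3 list. The number of private peaks stayed between 6203 and 8319 in 7 of 8 alternatives and was 2313 among the upper 50% of the list by total signal, which holds fewer peaks by construction. The downsampled difference between ab177178 and the other antibodies kept its direction in 15 of 15 alternatives (exact permutation p from 0.000549 to 0.0156). Leaving out the lists of 1 protocol gave 4.53 to 7.02 points. All 15 keep members chosen as absent with the other antibodies at 15 cycles. That choice favours this direction in advance, so these alternatives cannot show it to be independent of the rule. The H3K27me3 difference stayed positive in 23 of 23 alternatives, with 12.5 to 16.1 points when 1 list was left out; none could reach 0.05. The MACS2 share of private peaks, 29.3%, was 3.12% when 50% of the peak had to be covered and 9.56% with a −log10 q of 10 or more. It was 53.1% in the upper 50% by signal, 25.7% for members that also miss the other libraries' MACS2 lists, 27.2% without the dense windows, and 11.5%, 20.1%, 31.4%, 52.8% and 78.4% from the weakest to the strongest quintile, a split added after the data were seen; the cause of these shifts was not tested. The share in the ab177178 TSA list, 1.75%, was 0.877% at 50% coverage, 2.94% in the upper 50%, 1.11% for members outside the other MACS2 lists and 3.51% for members that MACS2 called, added later. In the upper 50% the share in the dense windows was 14.1% and the median width 1775 bp; for members outside the other MACS2 lists these were 7.63% and 1366 bp. The 50% overlap does not enter the width or the window share, and leaving out the dense windows leaves no window share, so these were not run. Depth is unknown, and weak peaks near the lowest total of the list limit what absence from another list can show.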
